A study of Homo sapiens with 4 samples.

Results

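*ID1*, *ID2*, *ID3* and *ID4*, together with 6 genes of bone morphogenetic protein (BMP) signalling, *SMAD6*, *SMAD7*, *SMAD9*, *BMP4*, *BMPR2* and *BAMBI*, were examined in A549 cells, an established line of human lung adenocarcinoma. The 10 genes were found through the RefSeq accession that each array probe carries, and they are 10 of 22439 genes with a matched probe. Each had a probe, 12 probes in all, with 2 probes each for *ID2* and *SMAD9* and 1 for each of the other genes. *BMP4*, a secreted ligand, was not well above background on any array and is given no level. The other 9 genes, with 11 probes, were well above background on all 4 arrays.

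The 4 arrays were 1-color Agilent expression arrays of total RNA, each measuring 1 Cy3-labeled sample. One sample came from cells transfected with *miR-486-5p*, another from cells transfected with *miR-486-3p*, and the remaining 2 were mock samples that received the transfection reagent, Lipofectamine RNAiMAX, without a miRNA. Both miRNAs are cut from 1 precursor, in which *miR-486-5p* serves as guide and *miR-486-3p* as passenger. The arrays were made to search for genes that change when either strand is put into lung adenocarcinoma cells. A concentration of 10 nM is listed for the miRNAs among the reagents; the time between transfection and RNA extraction is not given in the sources used here. All cells were the A549 line, with no other allele or agent named. Mock cells carried no control miRNA, so the response to any transfected miRNA and the response to these sequences cannot be told apart. Whether the mock samples were separate cultures is not stated, so the spread between them may be technical. Each strand has 1 array and thus no replicate of its own. In RNA of a whole culture, fewer cells that express a gene and less of its RNA per cell cannot be told apart.

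BMP ligands bind pairs of type I and type II serine/threonine kinase receptors at the cell surface. The receptors phosphorylate SMAD1, SMAD5 and SMAD9, which enter the nucleus with SMAD4 and switch on target genes, among which the *ID* genes are the best known. ID proteins have a helix-loop-helix domain but no DNA-binding region, and they hold E proteins such as TCF3 away from DNA, which is linked to the delay of differentiation in many cell types. *SMAD6*, *SMAD7* and *BAMBI* encode inhibitors of the pathway that are themselves among its known targets, or those of the related TGF-β pathway.

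The promoter sequences of 4 genes are shown. They are those of *SMAD6*, *SMAD7* and *BAMBI*, the inhibitors, whose levels differed between the strands, and of *ID2*. The level of *ID2* was above both mock arrays after either strand, as were those of *ID4*, *SMAD9* and *BMPR2*. A link between promoter letters and these levels was not tested. Each sequence is the 250 bases before the transcription start in the RefSeq annotation of GRCh38.p14, written 5′ to 3′ on the strand of the gene. They lie at chr15:66701986-66702235 on the plus strand, chr18:48950966-48951215 on the minus strand, chr10:28677271-28677520 on the plus strand and chr2:8681806-8682055 on the plus strand. Capitals mark matches, on either strand, to GTCTAGAC (the palindromic SMAD box), GGCGCC (a GC-rich SMAD box) or CAGACA (the CAGA box).
SMAD6: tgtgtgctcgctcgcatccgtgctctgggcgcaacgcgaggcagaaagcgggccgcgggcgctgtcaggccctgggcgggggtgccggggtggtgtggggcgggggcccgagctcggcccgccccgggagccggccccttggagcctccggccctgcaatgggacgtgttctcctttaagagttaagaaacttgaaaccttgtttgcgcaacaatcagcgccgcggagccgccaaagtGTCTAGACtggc
SMAD7: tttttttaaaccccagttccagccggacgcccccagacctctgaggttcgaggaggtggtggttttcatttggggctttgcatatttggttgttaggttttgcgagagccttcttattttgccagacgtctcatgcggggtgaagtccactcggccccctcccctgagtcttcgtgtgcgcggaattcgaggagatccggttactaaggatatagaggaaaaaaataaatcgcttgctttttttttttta
BAMBI: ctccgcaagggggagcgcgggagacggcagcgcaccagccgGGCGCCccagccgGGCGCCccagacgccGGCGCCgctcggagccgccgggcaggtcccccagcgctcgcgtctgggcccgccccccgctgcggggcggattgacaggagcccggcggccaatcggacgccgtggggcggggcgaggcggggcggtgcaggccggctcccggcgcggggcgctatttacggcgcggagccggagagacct
ID2: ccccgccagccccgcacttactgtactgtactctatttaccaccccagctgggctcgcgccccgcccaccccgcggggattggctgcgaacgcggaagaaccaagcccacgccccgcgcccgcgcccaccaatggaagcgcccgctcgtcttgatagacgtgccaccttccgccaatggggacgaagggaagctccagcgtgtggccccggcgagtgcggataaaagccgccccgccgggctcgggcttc
The window of *SMAD6* held 1 GTCTAGAC, whose first base lay at −12 relative to the start. The window of *BAMBI* held 3 matches to GGCGCC, the farthest beginning at −209, and that of *BMPR2* held 1 GGCGCC and 1 CAGACA. The windows of *SMAD7* and *ID2* held none of the searched letters, and neither did those of *ID1*, *ID3* and *ID4*. Among 35116 RefSeq promoter windows of this length, 0.182% held GTCTAGAC, 16.4% held GGCGCC and 13.6% held CAGACA. These matches describe the letters of the windows and are not measured binding sites. Of 8 of the 10 genes a window lay at the annotated start of the gene. Of *SMAD9* and *BMP4* none did; windows of *BMP4* at other starts held GGCGCC and CAGACA.

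Levels are given as the log2 of the processed signal minus the 75th percentile of the array, so that 0 is the 75th percentile and 1 unit is a doubling. A difference is a transfected array's value less the average of the mock values, on the same log2 scale. Genes were counted as lower or higher where the difference passed −0.5 or 0.5. Differences were tested with limma over all probes of the arrays, with Benjamini-Hochberg adjustment, and a gene is called where a probe of it has an adjusted p under 0.05. This test takes its spread from the mock arrays and from a prior over all probes, and it assumes that the transfected arrays vary as the mock arrays do. Over the 28246 probes well above background throughout, the mock arrays differed from each other with an SD of 0.196 log2, and 2.80% of these probes were past 0.5 between them. The 11 probes of the BMP and *ID* genes differed between the mock arrays by 0.03 to 0.26 in size.

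The *ID* genes did not move together. *ID2* rose after both strands. *ID4* was above both mock arrays after either strand, most on the *miR-486-5p* array. *ID1* was below both mock arrays on that array, and *ID3* lay between the mock arrays in both transfections. *ID2*, which is expressed in many epithelial and lymphoid cells, gave the clearest values. Its first probe (A_23_P143143) read 1.59 and 1.52 on the mock arrays, 3.46 with *miR-486-5p* and 2.82 with *miR-486-3p*. Its second probe (A_32_P69368) read 0.30 and 0.33 on the mock arrays, 2.28 with *miR-486-5p* and 1.56 with *miR-486-3p*. Both probes thus placed the samples in the same order, with the guide strand highest, the passenger strand next and the mock samples lowest, and the groups did not overlap. After *miR-486-5p* the differences of the probes were 1.91 (SE 0.0953) and 1.96 (SE 0.0886), each with a limma adjusted p of 0.0476, and *ID2* stood 3.82-fold above the mean of the mock arrays. This call was lost, with the size kept at 1.94 on both probes, in the authors' log2 values (adjusted p = 0.0738), and lost with no filter on dim probes (0.0857). After *miR-486-3p* they were 1.26 (limma adjusted p = 0.00979) and 1.25 (0.00927), or 2.39-fold for the gene.

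*ID1*, an early BMP target in endothelial and epithelial cells, read 5.22 and 5.15 on the mock arrays, 4.73 with *miR-486-5p* and 5.27 with *miR-486-3p*. The *miR-486-5p* array was thus below both mock arrays, by 0.46 on average (95% interval −0.77 to −0.14), which did not pass the limma test after adjustment (adjusted p = 0.0823). This fall was called over the probes well above background on all 4 arrays and with an intensity trend. With the normexp background correction it was −0.49 and called. The difference after *miR-486-3p* was 0.08 (95% interval −0.23 to 0.40, adjusted p = 0.501), and its call and direction depended on the scaling. It was −0.29 with median scaling, not called, and −0.06 with the normexp background correction, not called. It was 0.39 and called with quantile normalization (adjusted p = 0.0481) and 0.39 and called in the authors' log2 values (0.0498). *ID3*, often induced together with *ID1*, read 1.84 and 1.99 on the mock arrays, 1.98 with *miR-486-5p* and 1.96 with *miR-486-3p*. Both transfected values lay between those of the mock samples. The 95% intervals of the differences ran from −0.32 to 0.45 and from −0.34 to 0.44, and with median scaling the difference after *miR-486-3p* was −0.32, not called. *ID4*, a family member with roles in neural and mammary progenitors, read −2.90 and −2.69 on the mock arrays, −1.73 with *miR-486-5p* and −2.41 with *miR-486-3p*. Its difference after *miR-486-5p* was 1.07 (SE 0.141), or 2.10-fold, past 0.5 but not called by limma (adjusted p = 0.0541). It was called with median scaling (0.0310), over the probes well above background on all 4 arrays (0.0163) and with an intensity trend (0.00855). With the normexp background correction, which fits the median spot signals and adds an offset of 50, this difference was smaller, at 0.33, and called (0.0114). After *miR-486-3p* the difference of *ID4* was 0.39 (95% interval −0.09 to 0.86), above both mock arrays and not called. Median scaling made it 0.01, not called, and normexp made it 0.20 and called.

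**Figure D1:**
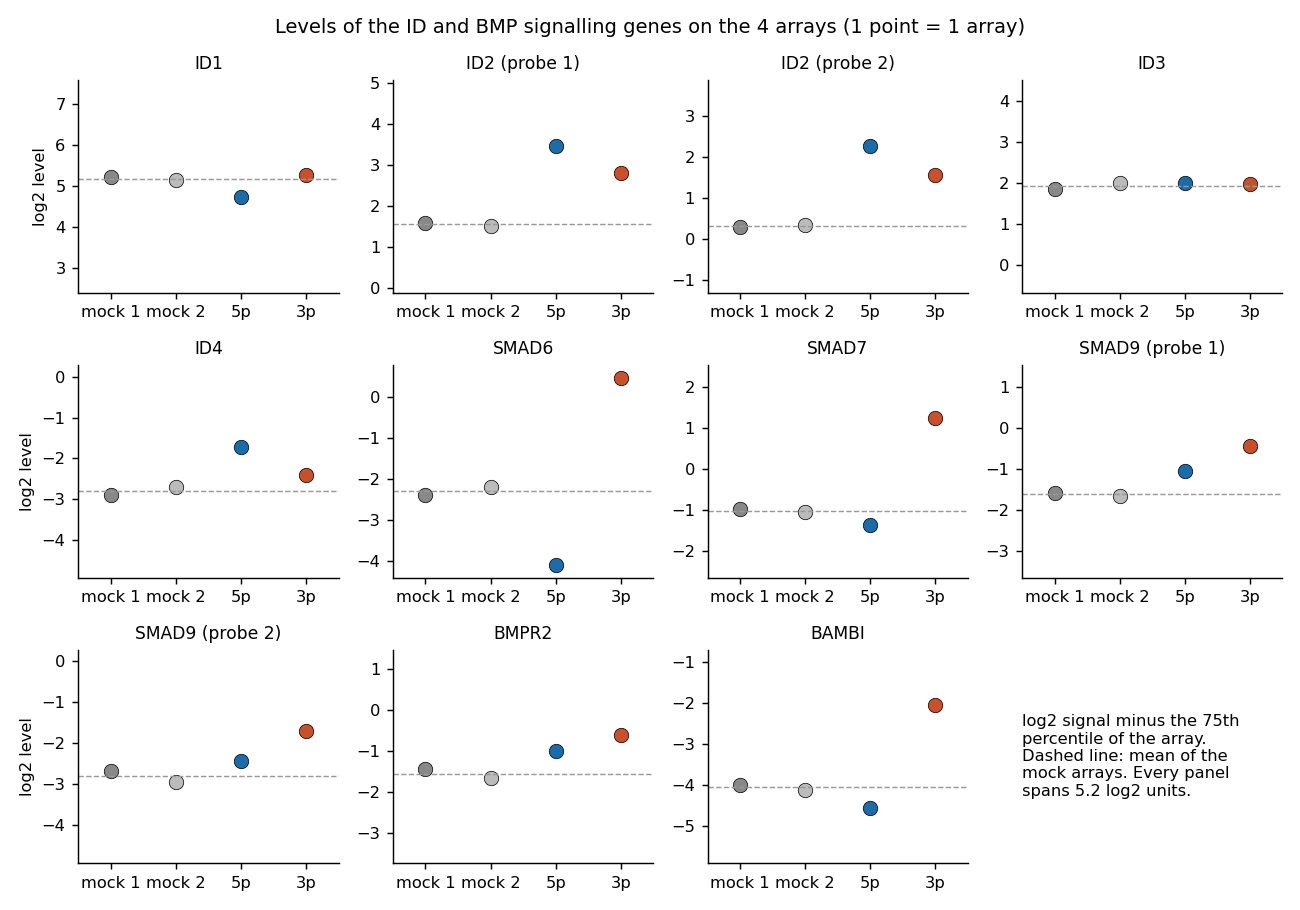
Level of each probe on each array, as log2 signal minus the 75th percentile of the array, with 1 point for each array and a dashed line at the mean of the mock arrays. Every panel spans the same number of log2 units, so heights can be compared as differences: both *ID2* probes are highest after *miR-486-5p*, *ID3* stays at the dashed line, and *SMAD6*, *SMAD7* and *BAMBI* are lowest after *miR-486-5p* and highest after *miR-486-3p*.

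With the scaling by the 75th percentile, the inhibitors of the pathway gave the largest differences between the strands among the 9 genes. *SMAD6*, which encodes an inhibitory SMAD that mainly opposes BMP signals, read −2.39 and −2.19 on the mock arrays, −4.08 with *miR-486-5p* and 0.47 with *miR-486-3p*. The mock arrays were thus between the transfected arrays, with a gap to either side several times the distance between them. *SMAD6* fell by 1.80 after *miR-486-5p* (SE 0.136, limma adjusted p = 0.0476), to 28.8% of the mock level; the adjusted p was 0.0738 in the authors' log2 values and 0.0883 with no filter on dim probes. After *miR-486-3p* it rose by 2.76 (SE 0.136, limma adjusted p = 0.00768), or 6.77-fold. The authors' own log2 values for this probe were 4.43 and 4.59 for the mock samples, 2.68 with the guide strand and 7.21 with the passenger strand, the same order. The size after *miR-486-5p* depended on the background correction: with the offset of 50 the difference was −0.29, and after *miR-486-3p* it was 1.47. The reading of −4.08 on the *miR-486-5p* array came from 1 probe. It was close to the lowest signal well above background on that array, −4.61. The window that holds GTCTAGAC, printed above, is that of this gene, and a link to its levels was not tested.

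*SMAD7*, the inhibitory SMAD that opposes both BMP and TGF-β receptors, read −0.99 and −1.06 on the mock arrays, −1.37 with *miR-486-5p* and 1.25 with *miR-486-3p*. It rose by 2.28 after *miR-486-3p* (SE 0.0947, limma adjusted p = 0.00762), or 4.84-fold. After *miR-486-5p* the difference was −0.35, below both mock arrays, within the limit of 0.5 and not called (adjusted p = 0.116). *BAMBI*, a membrane pseudoreceptor that lacks the kinase domain, read −4.01 and −4.13 on the mock arrays, −4.57 with *miR-486-5p* and −2.05 with *miR-486-3p*. It rose by 2.02 after *miR-486-3p* (SE 0.107, limma adjusted p = 0.00786), and with the offset of 50 this rise was 0.53. After *miR-486-5p* its difference was −0.50, just inside the limit, and not called (adjusted p = 0.0851), though it was called over the probes well above background on all 4 arrays. With the offset of 50 this difference was 0.03, so its direction is not settled. The *BAMBI* levels on the mock and *miR-486-5p* arrays were close to the lowest signals that count as well above background, which lay between −4.73 and −4.39.

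*SMAD9*, which encodes a receptor-activated SMAD of the BMP arm, and *BMPR2*, a type II BMP receptor gene, were above both mock arrays after either strand. The first *SMAD9* probe (A_23_P2814) read −1.58 and −1.67 on the mock arrays, −1.05 with *miR-486-5p* and −0.45 with *miR-486-3p*. The second (A_24_P655849) read −2.68 and −2.94 on the mock arrays, −2.43 with *miR-486-5p* and −1.70 with *miR-486-3p*. Both probes kept the order mock, guide strand, passenger strand. After *miR-486-3p* the differences were 1.17 and 1.11 (limma adjusted p = 0.0110 and 0.0231), or 2.20-fold for the gene; with the offset of 50 the gene's difference was 0.52. After *miR-486-5p* they were 0.58 and 0.38 and were not called (adjusted p = 0.0667 and 0.205). The first probe was called with normexp, over the probes well above background on all 4 arrays and with an intensity trend, the second under none of these. *BMPR2* read −1.45 and −1.66 on the mock arrays, −1.0 with *miR-486-5p* and −0.61 with *miR-486-3p*. It rose by 0.94 after *miR-486-3p* (SE 0.140, limma adjusted p = 0.0237), or 1.92-fold, and by the offset method this was 0.56. With arrays scaled by their medians this call was lost, at a difference of 0.57 (0.0536), and it was lost with no filter on dim probes (0.0602). After *miR-486-5p* the difference was 0.55, past the limit but not called (adjusted p = 0.104), and 0.33 and called with the offset. The difference of 0.55 was called over the probes well above background on all 4 arrays and with an intensity trend.

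Counted over the 9 measured genes, 1 was lower after *miR-486-5p* (*SMAD6*) and 3 were higher (*ID2*, *ID4* and *BMPR2*), where 15.9% of 16024 genes were lower and 13.8% higher. After *miR-486-3p*, none was lower and 6 were higher (*ID2*, *SMAD6*, *SMAD7*, *SMAD9*, *BMPR2* and *BAMBI*), where 27.2% of 16446 genes were lower and 30.4% higher. limma called 2 of the 9 after *miR-486-5p* (*ID2* higher, *SMAD6* lower), against 10.2% of 16662 genes in either direction, and the same 6 as the limit after *miR-486-3p*, against 62.2%. With no filter on dim probes, or in the authors' log2 values, limma called 0 of all genes after *miR-486-5p*, so that every call after this strand named here was lost (7 of the 9 genes had an unadjusted p under 0.05 in each). With so many genes called after *miR-486-3p*, a count of calls says little about these 9, and their sizes and directions are the description given here. The median difference of the 9 was 0.07 with the guide strand and 1.14 with the passenger strand, beside 0.03 and 0.06 over all genes. These genes were chosen with earlier results of these data known, so their median is not a test of the set. With the passenger strand it was 0.23 for the *ID* genes alone and 2.28 for *SMAD6*, *SMAD7* and *SMAD9*. Scaling by medians moved the all-gene median after *miR-486-3p* by −0.37 and turned the split of all genes past the limit from 4467 lower and 5006 higher to 6866 and 2932. For *miR-486-5p* it turned 2549 lower and 2213 higher into 3067 and 1748. The 6 genes counted as higher after *miR-486-3p* were also past the limit under that scaling.

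**Figure D2:**
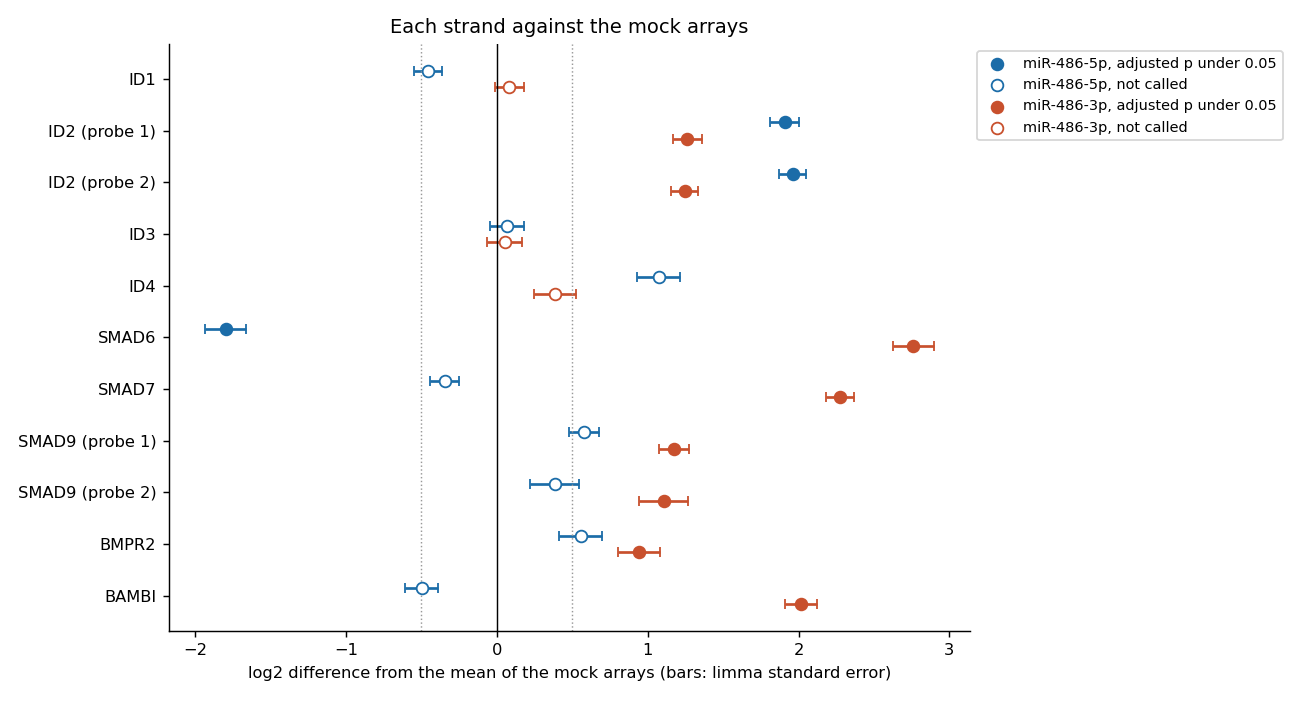
Difference of each transfected array from the mean of the mock arrays for each probe, on the log2 scale, with bars for the limma standard error and filled points for an adjusted p under 0.05. Dotted lines mark −0.5 and 0.5; *ID2* and *SMAD6* are called after *miR-486-5p*, in opposite directions, and every called gene lies to the right after *miR-486-3p*.

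Both comparisons use the same mock arrays, so the strands were also compared directly. Of the 9 genes, limma called 6 between the strands, against 53.1% of 16662 genes. Higher with *miR-486-3p* than with *miR-486-5p* were *SMAD6* by 4.56 (95% interval 4.03 to 5.08, 23.5-fold), *SMAD7* by 2.62 (2.25 to 2.99, 6.15-fold) and *BAMBI* by 2.52 (2.10 to 2.93, 5.72-fold), each with an adjusted p of 0.0119 or less. With the offset of 50 these differences were 1.77, 1.69 and 0.50, all called, and that of *BAMBI* was then smaller in size than the −0.66 and −0.65 of *ID2*. *SMAD9* was higher by 0.59 on its first probe (adjusted p = 0.0431) and by 0.72 on its second, which did not pass (0.0698). *ID1* was also higher with *miR-486-3p*, by 0.54 (95% interval 0.17 to 0.91, adjusted p = 0.0467), a difference of 0.24 that was not called with median scaling (0.272). The call of *SMAD9* was also lost with that scaling (0.205) and in the authors' log2 values (0.0565). With no filter on dim probes the calls of *ID1* (0.0735) and *SMAD9* (0.0777) were both lost. *ID2* was the called gene in the other direction, with differences of −0.65 and −0.72 (adjusted p = 0.0352 and 0.0269), so its rise was larger with the guide strand. For *ID4* the difference was −0.69 (95% interval −1.23 to −0.14), not called after adjustment (adjusted p = 0.0606). With median scaling it was −0.99 and called (0.0152), and with the offset it was −0.13 and not called (0.133). *BMPR2* differed by 0.39 with an interval from −0.15 to 0.93, and *ID3* by −0.02 with an interval from −0.46 to 0.43, so these arrays leave room for moderate differences in either gene.

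**Figure D3:**
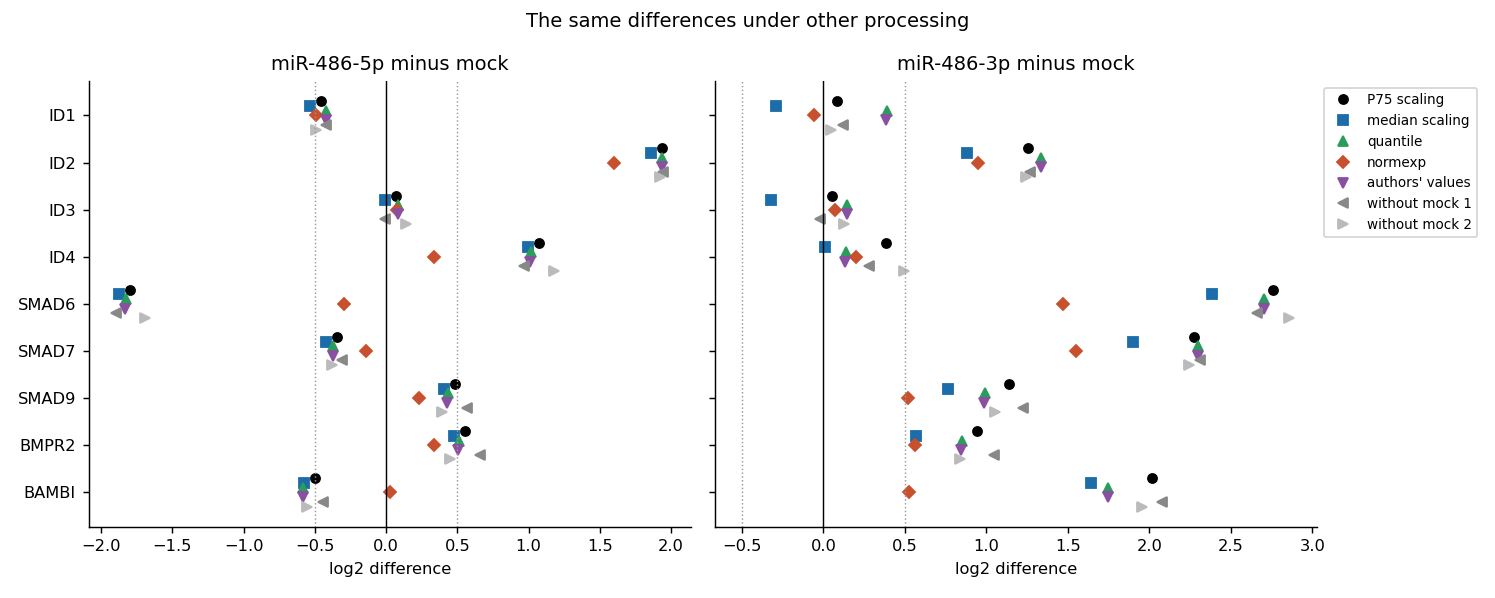
The differences of the 9 measured genes under the scaling by the 75th percentile (black) and 6 other settings, in log2 units, with dotted lines at −0.5 and 0.5. For *ID2* and *SMAD6* every setting keeps the direction, while the background correction with an offset (diamonds) draws the dim genes *SMAD6*, *ID4* and *BAMBI* toward 0.

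The remaining genes of the pathway were taken from lists ordered by role. Of 65 listed genes outside the TGF-β arm, 63 had a probe; 46 were in use with the guide strand, of which 9 were lower and 6 higher. With the passenger strand 47 were in use, of which 13 were lower and 13 higher. Over all genes, 15.9% were lower and 13.8% higher with the guide strand. With the passenger strand these shares were 27.2% and 30.4%. limma called 3 of 48 lower and 0 higher after *miR-486-5p* (12 and 11 at an unadjusted p under 0.05), and 13 lower and 13 higher after *miR-486-3p* (17 and 14). Over all genes it called 10.2% and 62.2% in either direction. The counts of the single lists below, each of few genes, are to be read beside these shares. Their medians were 0.10 and −0.07, close to those of all genes.

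Among the ligands, 3 of 8 in use were lower and 0 higher after *miR-486-3p* (limma 3 lower, 1 higher). *BMP6*, an inducer of hepcidin, read 0.49 and 0.31 on the mock arrays, 1.16 with *miR-486-5p* and −0.74 with *miR-486-3p*. It fell by 1.14 after *miR-486-3p* (limma adjusted p = 0.0153), while the 0.76 after *miR-486-5p* was not called (0.0648). *GDF6*, a ligand of joint and eye development, fell by 1.28 after *miR-486-3p* (limma adjusted p = 0.0125). After *miR-486-5p*, 1 of 7 ligands was lower, 1 higher and 1 called lower. The lower and called ligand was *BMP7*, of kidney and bone development, named after its values were seen. It had a difference of −0.61 with adjusted p values from 0.0476 to 0.587 over its probes, and of 0.43 after *miR-486-3p* (0.0217 to 0.0552). Its call after *miR-486-5p* was lost with no filter on dim probes and in the authors' log2 values. *GDF7* had a difference of −0.49 after *miR-486-5p* (0.182). Of the receptors, *ACVR1*, a type I receptor, rose by 1.05 after *miR-486-3p*, with both probes called (limma adjusted p = 0.0123 and 0.0151). *ACVR2A*, a type II receptor for activins and BMPs, rose by 0.95 (0.0357). In all, 2 of 8 receptors were lower and 3 higher after *miR-486-3p* (limma 2 and 2), and after *miR-486-5p* 1 of 7 was higher and limma called 0 (1 lower and 1 higher at an unadjusted p under 0.05), with differences of 0.50 for *ACVR1* (0.0829) and 0.36 for *BMPR1B* (0.139). Of the other SMADs, *SMAD4*, the shared partner, rose by 0.85 after *miR-486-3p* (limma adjusted p = 0.0103 and 0.0307 for its probes) and *SMAD5* by 0.55 (0.0269). After *miR-486-5p*, 0 of the 3 was past the limit and limma called 0 (1 at an unadjusted p under 0.05), with 0.24 for *SMAD4* and 0.02 for *SMAD5*.

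The extracellular antagonists bind BMPs outside the cell. *NOG* (noggin) read 0.55 and 0.40 on the mock arrays, −0.80 with *miR-486-5p* and 0.02 with *miR-486-3p*. It fell by 1.28 after *miR-486-5p* (limma adjusted p = 0.0476), a call lost with no filter on dim probes and in the authors' log2 values. *TWSG1* had a difference of −0.93 after that strand, which was not called (0.0539). After *miR-486-3p*, *NOG* and *TWSG1* were also below both mock arrays, with differences of −0.45 and −0.49 that were not called (0.0646 and 0.0567). With *miR-486-5p*, 4 of 9 antagonists were lower and 2 higher, with 1 called. After *miR-486-3p*, 2 of 8 were lower and 3 higher (limma 1 and 3). *FST* (follistatin), named after its values were seen, was not well above background on the mock arrays. With the mock values raised to the lowest signal well above background, its difference was 1.85, a lower bound. The limma adjusted p of 0.0342 belongs to another difference, taken from the signals without this floor. On the mock arrays these were −5.6 and −6.8, which are not reliable levels. *FSTL1* rose by 0.70 (limma adjusted p = 0.0204), and *CHRD* (chordin) had a mean difference of 1.06 over probes that disagreed, with adjusted p values of 0.0330 and 0.535.

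Inside the cell, *TOB1*, which encodes an antiproliferative protein that can restrain SMAD activity in bone cells, read 1.21 and 1.36 on the mock arrays, −0.12 with *miR-486-5p* and 1.67 with *miR-486-3p*. It fell by 1.41 after *miR-486-5p* (limma adjusted p = 0.0476), a call lost with no filter on dim probes and in the authors' log2 values. *SKIL*, a corepressor of SMADs that is also a TGF-β target, read −1.64 on both mock arrays, −2.29 with *miR-486-5p* and 0.31 with *miR-486-3p*. It rose by 1.95 after *miR-486-3p* (limma adjusted p = 0.00762), and its −0.65 after *miR-486-5p* was not called (0.0549). *NEDD4L*, a ubiquitin ligase, fell by 0.99 after *miR-486-3p* on the mean of 3 probes (limma adjusted p between 0.0109 and 0.0214). Of these 10 regulators, 2 were lower and 0 higher after *miR-486-5p* (limma 1 and 0), and 3 were lower and 2 higher after *miR-486-3p* (limma 4 and 2).

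Of the other BMP targets, transcription factors for the most part, *DLX5* rose by 1.23 (limma adjusted p = 0.0122) and *HEY1* by 1.22 (0.0181) after *miR-486-3p*, where 1 of 6 targets was lower and 3 were higher, all called. After *miR-486-5p*, *DLX5* had 0.60 (0.0744) and *MSX1* 0.54 (0.0652), and limma called 0 of 6 (4 at an unadjusted p under 0.05: 1 lower and 3 higher), with 1 below and 2 above the limit. Among the partners of ID proteins, *TCF3*, whose E protein is bound by them, read 3.80 and 3.79 on the mock arrays, 3.42 with *miR-486-5p* and 1.54 with *miR-486-3p*. It fell by 2.26 after *miR-486-3p* (limma adjusted p = 0.00762). *USP1*, a deubiquitinase known to stabilize ID proteins, read 3.11 and 2.99 on the mock arrays, 2.35 with *miR-486-5p* and 1.29 with *miR-486-3p*, and fell by 1.75 after the latter (0.00842). Both were below both mock arrays after *miR-486-5p* too, by differences of −0.37 and −0.70 that were not called (0.0958 and 0.0595), while *TCF4* and *TCF12* stayed within 0.5 in both. Of these 4 partners, 1 was lower with the guide strand and 2 with the passenger strand, and 0 were higher with either. In the TGF-β arm, *TGFBR2*, the type II receptor, rose by 1.01 after *miR-486-5p* (limma adjusted p = 0.0476). This call was lost with no filter on dim probes and in the authors' log2 values. *SMAD3* had −0.76 after that strand (0.0520). After *miR-486-3p*, *SMAD2* fell by 0.80 (0.0302) and *TGFBR1* rose by 0.56 (0.0434). Of the 4 genes of this arm, 3 were lower and 1 higher after *miR-486-5p*, and 2 lower and 1 higher after *miR-486-3p*.

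**Figure D4:**
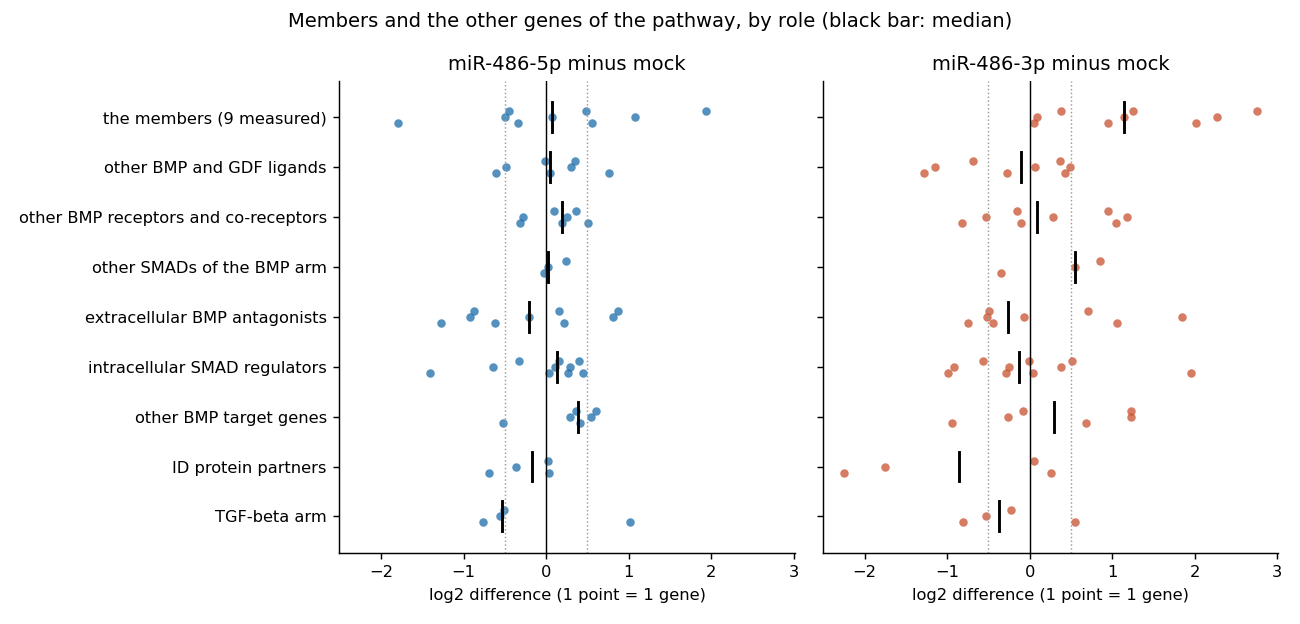
Difference of each gene from the mean of the mock arrays after *miR-486-5p* (left) and *miR-486-3p* (right), in log2 units, by role in the pathway, with 1 point for each gene, a black bar at the median of each row and dotted lines at −0.5 and 0.5. The 9 measured *ID* and BMP genes in the top row have a median of 1.14 after *miR-486-3p*, beside medians of −0.85 to 0.55 in the other rows. These genes were chosen with earlier results of these data known, so their median is not a test of the set. The 4 *ID* genes alone have a median of 0.23, within the range of the other rows.

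The label of the cells was set against marker genes. The keratins *KRT7*, *KRT8*, *KRT18* and *KRT19* were well above background on all 4 arrays, *EPCAM* on 2 and *CDH1* on 0; of the alveolar genes, *SFTPC* and *ABCA3* were so on all, *NKX2-1* on 2 and *SFTPA1* and *SFTPB* on 0. Of 4 fibroblast genes, 1 to 2 were well above background on an array, of 4 endothelial genes 2, and of 3 measured leukocyte genes 3. *DCN*, *VWF*, *CDH5*, *PTPRC* and *CD3E* were so on all 4 arrays and *COL1A1* on 2, while *LUM*, *COL3A1*, *PECAM1* and *KDR* were so on 0. This held on all arrays for only 1 of 2 probes of *DCN*, 1 of 2 of *VWF* and 2 of 5 of *PTPRC*. Averaged over their probes, *PTPRC* read −4.92 to −4.65 and *DCN* −5.4 to −4.2. The levels of *PTPRC* and *DCN* were near or below the lowest signals well above background, −4.73 to −4.39. *CDH5* read −2.2 to −1.4, *VWF* −3.6 to −3.1 and *CD3E* −4.3 to −4.0, all above those lowest signals. The part of other cell types in the values above was not tested.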

How the data were processed

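The authors deposited, for each of the 4 arrays, the output of Agilent Feature Extraction 12.1.1.1, in which each spot has a background-corrected intensity on a linear scale, and a table of log2 values of the same arrays, whose quartiles are identical on all arrays (0.15, 2.76 and 6.28), as after quantile normalization. The normalization of that table is not given in the sources used here. Its values correlated with the scanner log2 signal at 0.99962 to 0.99994 (Pearson, across probes).

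From the deposited intensity, log2 was taken and the 75th percentile of each array subtracted. Outlier spots were dropped (50 to 72 an array, of 60901), no spot was saturated, and spots of a probe were averaged. Probes well above background numbered 30690 to 31516. Probes entered a strand's comparison when well above background on its array or on both mock arrays; where a whole group was dim, the higher of its own signal and the lowest signal well above background on that array stood in. Differences were averaged over the used probes of a gene. limma was fitted to the signals without this substitution. Of 33080 probes with a RefSeq accession, 31104 matched a gene in a table of GRCh38.p14, used for names and promoter windows; the arrays were designed on another build, and no coordinates were carried over. limma 3.58.1 in R 4.3.3 (lmFit, eBayes; 3 groups, 33498 probes, 1 residual degree of freedom, prior of 1.75 degrees of freedom with SD 0.0893) was tested on simulated data. All simulated arrays were given the same spread, taken from the mock arrays. That test therefore could not check whether the transfected arrays vary as the mock arrays do. All arrays were on 1 slide from 1 scan, so no batch could be fitted, and their number limits the precision.

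The gene lists and the 10 genes were chosen with earlier results of these data known. All probes of the 10 genes are named; of each other list, for each strand, the 2 largest differences among genes that lay outside both mock arrays and whose every matched probe was well above background on all arrays. *BMP7* and *FST*, outside this rule, were named after their values were seen. *NBL1* and *CHRDL2* had no matched probe. The values of 1 marker gene are not reported here. Alternatives were median scaling, quantile normalization, normexp with an offset of 50, no dim-probe filter, a stricter one (well above background everywhere), the brightest probe, the authors' log2 values, either mock array left out, a limit of 1, an intensity trend and the methods' t-test.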

Additional observations from a re-analysis of the deposited data

Results flagged for a closer look

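Each gene below differed between the strands in the limma contrast of *miR-486-3p* against *miR-486-5p*, a test of the difference itself. *SMAD6* was higher with *miR-486-3p* by 4.56 on the log2 scale, *SMAD7* by 2.62, *BAMBI* by 2.52, *SMAD9* by 0.59 on probe A_23_P2814 and *ID1* by 0.54. *ID2* had differences of −0.65 and −0.72 on its probes, higher with *miR-486-5p*. With normexp the first 3 were 1.77, 1.69 and 0.50. The calls of *SMAD9* and *ID1* were lost with median scaling and with no filter on dim probes, and that of *SMAD9* also in the authors' log2 values. *SMAD6* was called in opposite directions against the mock arrays, although its call after *miR-486-5p* was lost with no filter and in the authors' values. With 1 array for each strand, these differences have no replicate check, and explanations for them were not tested.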

How the results depend on the processing

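Over 162 differences recomputed for single genes, 134 moved by less than 0.196, the SD between the mock arrays, 28 moved by more, and 0 reversed a called direction. The 134 include differences that could not move. Every probe of these genes was well above background on all arrays, so neither change of the dim-probe filter could alter them. Taking the brightest probe could alter only *ID2* and *SMAD9*, which have 2 probes each. The number of genes lower after *miR-486-5p*, 1 (*SMAD6*), became 3 with median scaling (adding *ID1* and *BAMBI*), 2 with quantile normalization and 2 with the authors' log2 values (adding *BAMBI*), and 0 with normexp; leaving out a mock array gave 1 to 2, with *BAMBI* added without mock 2. The number higher, 3, became 1 with normexp (*ID2*) and 2 to 4 without a mock array. After *miR-486-3p* 0 were lower under every alternative, and 5 to 7 were higher. The limma count after *miR-486-5p*, 2, became 6 with normexp, 7 over probes well above background on all arrays and 6 with an intensity trend. It became 0 with no filter on dim probes and 0 with the authors' log2 values; at an unadjusted p under 0.05 the count was 7 in both, against 8 of 9 as reported. By the methods' t-test it was 1 unadjusted (*ID2*) and 0 after Benjamini-Hochberg. After *miR-486-3p* the limma count of 6 ran from 5 to 7, and the methods' t-test gave 5 unadjusted and 0 after Benjamini-Hochberg. Between the strands the count of 6 ran from 4 to 7. normexp adds 50 to each signal, against a 75th percentile of 93.1 to 114, and was run on the median signal. limma could not be run without a mock array, since no residual degree of freedom is left. No paired analysis was possible because each strand has 1 array and the groups share fewer than 2 replicate numbers. *BMP4* has no level at this signal over background.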
